A study of Mus musculus with 8 samples.

Results

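The annexins are a family of calcium-dependent phospholipid-binding proteins, and 9 of their genes (Anxa1 to Anxa8 and Anxa11) were followed here in irradiated mouse colon fibroblasts. The genes were taken by name from the GENCODE M21 symbols of the counted Ensembl identifiers, 9 of 55573 genes in all, and all 9 were among the 15259 that passed the filter on low counts. The family was chosen by the rise of its member Anxa8 after irradiation, seen in the levels of these same libraries. The values of Anxa8 are therefore given as a description with no test, and the question put to the other members is how far they shared its rise. The other 8 members entered by family name, not by their values, and their adjusted p-values come from the fit over all tested genes.

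The cells were colon fibroblasts of the C57BL6/J strain, grown in 2 dimensions on tissue culture plates in Advanced DMEM F12 with 10% FBS. Both groups had received APTKA conditioned medium, a name the labels do not expand, so that every library comes from medium-treated cells and none from untreated ones. One group (4 libraries, I to IV) was not irradiated, and the other (4 libraries, I to IV) was given 3 fractions of 2 Gy. All were collected 72 h after the first dose, and polyA RNA was sequenced to 28731227 to 37157216 counted reads per library. The labels do not say whether the libraries came from separate animals or cultures, so p-values cover only the scatter among these libraries, part or all of which may be technical. Mitochondrial rRNA differed within the irradiated group, at 15129 CPM (counts per 1000000 counts) in library I and 15263 CPM in library II, while every other library of the study lay between 4178 and 5934 CPM.

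As background, annexins share a conserved core of repeats that holds calcium and docks on negatively charged phospholipids, and they differ mainly in their amino-terminal tails, which bind partners such as S100 proteins. When calcium enters a cell through a damaged plasma membrane, several annexins move to the wound within moments and help to reseal it. Fibroblasts are known to make large amounts of Anxa1, Anxa2, Anxa5 and Anxa6, whereas Anxa8 is better known from epithelia and endothelium, where it acts on late endosomes and on the display of the tetraspanin Cd63.

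Of the 9 members, only Anxa8 was higher after irradiation. It went from 3.13 ± 0.315 to 9.16 ± 0.247 CPM (scaled with TMM factors; mean ± SD, n = 4), while the log2 fold changes of the other 8 members lay between -0.17 (Anxa2) and -0.04 (Anxa6). With edgeR, 0 of the 8 were called higher at an adjusted p under 0.05 and 1 was called lower, Anxa2, and DESeq2 and limma-voom gave the same counts. At an unadjusted p under 0.05 there were 0 higher and 3 lower (Anxa1, Anxa2 and Anxa5). Over all tested genes 2.59% were called higher and 4.15% lower at the adjusted threshold, 6.74% in all. Nothing is read from the members' counts against these shares. The share of all tested genes at an unadjusted p under 0.05 was not taken, here or for the lists below.

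Promoters are shown so that the start region of Anxa8 can be set beside those of members that did not rise. RefSeq promoters (build GRCm38.p6) were matched for 7 of the 9 members, all but Anxa3 and Anxa6. The 250 bases before the start are printed 5′ to 3′ on the strand of the gene for Anxa8 (chr14:34085729-34085978, plus strand), for Anxa2 as the member called lower (chr9:69453433-69453682, plus strand), and for Anxa11 as a member on the chromosome of Anxa8 (chr14:25841905-25842154, plus strand). Capitals mark each CG dinucleotide, each TATAAA in the last 60 bases on the strand of the gene, and each match to the AP-1 motif TGANTCA on either strand.
Anxa8: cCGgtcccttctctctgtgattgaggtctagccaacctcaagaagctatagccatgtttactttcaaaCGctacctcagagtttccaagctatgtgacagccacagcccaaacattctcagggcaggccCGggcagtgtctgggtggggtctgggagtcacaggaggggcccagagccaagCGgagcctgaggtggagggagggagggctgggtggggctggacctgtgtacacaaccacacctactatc
Anxa2: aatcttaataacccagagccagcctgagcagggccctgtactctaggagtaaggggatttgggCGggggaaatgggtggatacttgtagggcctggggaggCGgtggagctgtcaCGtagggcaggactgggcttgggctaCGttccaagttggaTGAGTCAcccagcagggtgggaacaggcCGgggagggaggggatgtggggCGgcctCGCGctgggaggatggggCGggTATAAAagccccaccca
Anxa11: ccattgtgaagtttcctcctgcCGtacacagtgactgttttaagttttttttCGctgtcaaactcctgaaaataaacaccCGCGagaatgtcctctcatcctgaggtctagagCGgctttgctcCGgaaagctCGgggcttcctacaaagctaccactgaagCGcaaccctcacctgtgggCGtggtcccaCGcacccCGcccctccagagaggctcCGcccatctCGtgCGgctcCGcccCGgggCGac

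The Anxa8 sequence held 4 CG dinucleotides, with neither TATAAA nor TGANTCA. Anxa2 had 9 CG dinucleotides, 1 match to TGANTCA and TATAAA near its start. Anxa11 had 17 CG dinucleotides and neither motif. The median over 32851 promoters of the same length was 6 CG dinucleotides, 2.87% of them held TATAAA in that stretch and 6.75% held TGANTCA. A p53 half-site, searched by its consensus on both strands, was present in 7.13% of promoters and in none of these 3 sequences. A match or its absence describes only the letters of this window.

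Anxa8 (ENSMUSG00000021950, chromosome 14, 34085981 to 34100571 of mm10, protein-coding) stood at 3.21, 3.02, 3.52 and 2.77 CPM in non-irradiated libraries I to IV and at 9.07, 9.29, 8.87 and 9.42 CPM in irradiated libraries I to IV. Every irradiated library lay well above every non-irradiated one, and within each group the libraries were close together. These levels rest on 92, 95, 130 and 88 counts in the non-irradiated and 328, 307, 322 and 286 counts in the irradiated libraries. The fitted change was 2.92-fold (log2 fold change 1.54, SE 0.09), the 6th largest log2 fold change of 15259 genes, of which the central 90% lay between -0.32 and 0.34. Without irradiated I and II, the libraries rich in mitochondrial rRNA, the log2 fold change of Anxa8 was also 1.54. In bulk RNA, more cells with a transcript and more transcript per cell cannot be told apart. The span of A630023A22Rik overlaps that of Anxa8 on the opposite strand, but the 2 genes share 0 exonic bases and A630023A22Rik had 16 counts over all libraries.

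**Figure D1:**
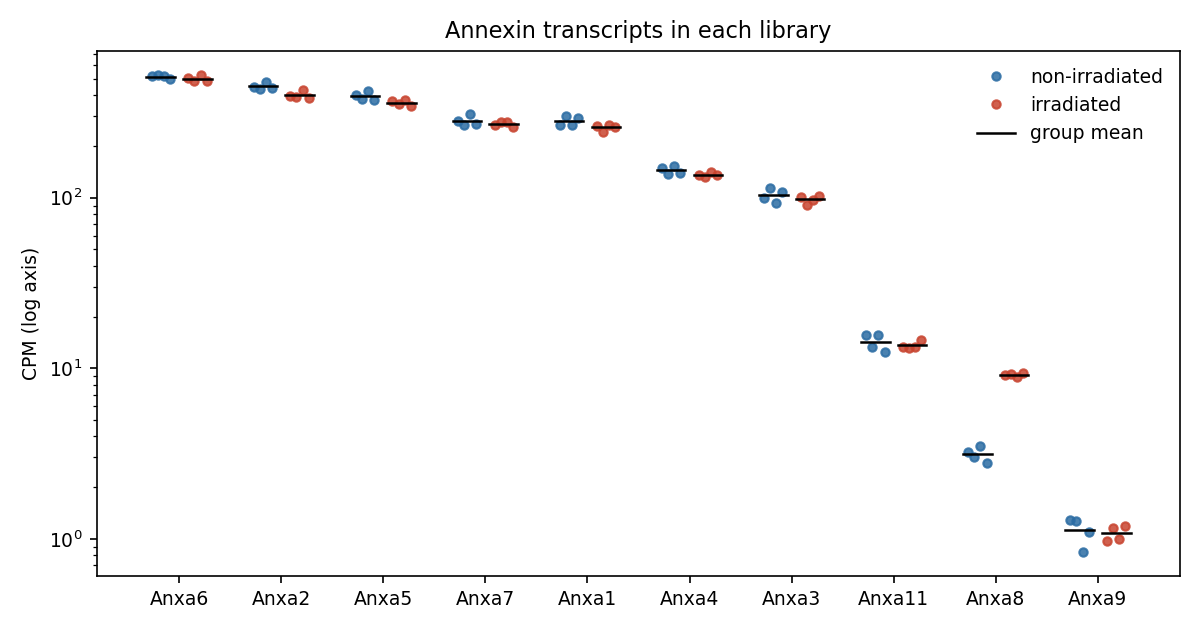
Annexin levels in each library, as CPM on a log axis, for the 9 members and Anxa9, ordered by their non-irradiated mean. Each point is 1 library (4 non-irradiated in blue, 4 irradiated in red) and each black line is a group mean; the groups stand clear of each other by a wide margin for Anxa8, with 2.77 to 3.52 against 8.87 to 9.42 CPM.

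Anxa2, Anxa1 and Anxa5, which have known roles at the outer cell surface, are taken first. They are also the members that were lower at an unadjusted p under 0.05, so nothing is read from this grouping. Only Anxa2 was called, where 4.15% of all tested genes were called lower. Anxa2 (ENSMUSG00000032231, chromosome 9, 69453620 to 69491795), which pairs with S100a10 and gathers plasminogen and its activator on the cell surface, stood at 446, 436, 475 and 439 CPM in non-irradiated I to IV and at 394, 389, 426 and 384 CPM in irradiated I to IV. The groups did not overlap, irradiated III coming closest to the non-irradiated libraries. Its log2 fold change was -0.17 (SE 0.04, edgeR adjusted p = 0.0252). The fall of Anxa2 lost its call when any 1 of non-irradiated I or III or irradiated I, II or IV was left out (adjusted p from 0.0512 to 0.0984), with log2 fold changes of -0.17 to -0.14. Without both irradiated I and II, the libraries richest in mitochondrial rRNA, the adjusted p was 0.216 and the log2 fold change -0.15.

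Anxa1 (ENSMUSG00000024659, chromosome 19, 20373428 to 20390944), an anti-inflammatory ligand of formyl peptide receptors, stood at 266, 302, 266 and 294 CPM in non-irradiated and 265, 243, 267 and 260 CPM in irradiated libraries I to IV. The groups overlapped only through irradiated III, and non-irradiated I and III were almost level with irradiated I and III. The log2 fold change was -0.12 (SE 0.05, adjusted p = 0.152), and Anxa1 was called lower in 1 of 18 alternatives, without both non-irradiated I and III (adjusted p = 0.015).

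Anxa5 (ENSMUSG00000027712, chromosome 3, 36448923 to 36475894), known for its binding to exposed phosphatidylserine on dying cells, stood at 400, 378, 421 and 376 CPM in non-irradiated and 367, 356, 375 and 347 CPM in irradiated libraries I to IV. The groups did not overlap, but the lowest non-irradiated and the highest irradiated library were almost level. Its log2 fold change of -0.12 was not called (SE 0.04, adjusted p = 0.101). Apart from Anxa8, whose rise was the reason for the choice, only Anxa2 and Anxa5 had groups that did not overlap, both with the irradiated libraries lower. Over all tested genes 14.2% showed no overlap, 6.13% with the irradiated libraries higher and 8.07% with them lower. Nothing is read from these members against those shares.

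Anxa6, Anxa4 and Anxa3 did not pass the test in either direction. Anxa6 (ENSMUSG00000018340, chromosome 11, 54979108 to 55033445), which has a duplicated core and acts in endocytosis, stood at 514, 527, 514 and 496 CPM in non-irradiated and 503, 486, 524 and 482 CPM in irradiated libraries I to IV, so that the groups interleaved (adjusted p = 0.591 for a log2 fold change of -0.04). Anxa4 (ENSMUSG00000029994, chromosome 6, 86736840 to 86793584), a membrane-aggregating annexin, stood at 149, 137, 153 and 139 CPM in non-irradiated and 135, 133, 141 and 136 CPM in irradiated libraries I to IV (adjusted p = 0.264 for a log2 fold change of -0.09). Anxa3 (ENSMUSG00000029484, chromosome 5, 96793339 to 96845966) stood at 100, 114, 92.8 and 108 CPM and at 101, 91.2, 97.4 and 103 CPM (adjusted p = 0.485 for a log2 fold change of -0.08). In all 3 the irradiated libraries reached into the non-irradiated range, though for Anxa4 only irradiated III did and the others lay below it.

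Anxa7 and Anxa11 carry long amino-terminal tails, bind the calcium sensor Pdcd6, and lie on chromosome 14 like Anxa8. Anxa7 (ENSMUSG00000021814, 20455260 to 20480133) stood at 283, 266, 309 and 271 CPM in non-irradiated and 267, 279, 279 and 260 CPM in irradiated libraries I to IV (adjusted p = 0.527 for a log2 fold change of -0.06). Anxa11 (ENSMUSG00000021866, 25842156 to 25886804), which also tethers RNA granules to lysosomes, stood at 15.7, 13.4, 15.7 and 12.5 CPM in non-irradiated and 13.3, 13.2, 13.4 and 14.6 CPM in irradiated libraries I to IV (adjusted p = 0.636 for a log2 fold change of -0.08). In both genes the irradiated libraries sat inside or next to the non-irradiated range. The antisense gene Anxa11os shares 113 exonic bases with Anxa11 and had 49 counts over all libraries, against 3695 for Anxa11.

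The intervals limit how much of the Anxa8 rise the other members could have shared. The upper end of the 95% interval was 1.07-fold for Anxa11, 1.03-fold for Anxa3, Anxa6 and Anxa7, and 0.99-fold, 0.98-fold and 0.94-fold for Anxa1, Anxa5 and Anxa2. For Anxa4 it was 0.01 on the log2 scale. The log2 fold changes of all 8 were below 0 under each scaling tried (TMM, RLE, upper-quartile and total counts), with a median of -0.08 against 0.00 over all tested genes. Without both non-irradiated I and III, 6 of the 8 were below 0. The Pearson correlations of log2 CPM with Anxa8 over the 8 libraries, which share the group difference, ran from -0.82 (Anxa2) to -0.21 (Anxa11).

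**Figure D2:**
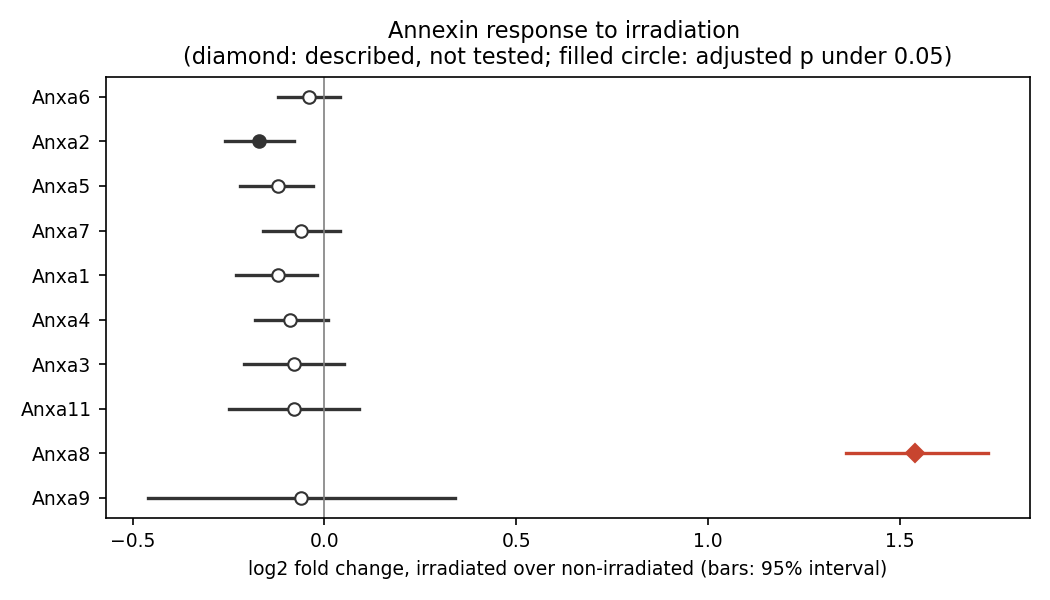
Log2 fold change of each annexin, irradiated over non-irradiated, with its 95% interval as a bar. The diamond marks Anxa8, described and not tested, at 1.54; the filled circle is Anxa2 at -0.17, the open circles were not called, and the wide interval of Anxa9 comes with its low level.

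Of the 3 other annexin genes, only Anxa9 was tested, and it was not called. Anxa9 had 1.13 ± 0.209 and 1.07 ± 0.110 CPM (adjusted p = 0.894 for a log2 fold change of -0.06), with an interval of 0.73-fold to 1.26-fold. Its exons share 71 bases with Mindy1 on the opposite strand, which had 13626 counts against 288 for Anxa9. They also share 94 bases with 6330562C20Rik on the same strand, which had 120 counts. Part of the Anxa9 counts therefore cannot be assigned with certainty. Anxa13, an annexin of intestinal epithelium, had 37 counts and Anxa10 had 6 counts over all 8 libraries, and neither was tested.

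Per kilobase of annotated exon, which allows levels to be compared between genes, the non-irradiated order began with Anxa5 (222 ± 11.8 CPM per kb), Anxa6 (175 ± 4.41), Anxa2 (120 ± 4.78) and Anxa1 (96.8 ± 6.36). Anxa7 (47.1 ± 3.18 CPM per kb), Anxa4 (31.1 ± 1.62) and Anxa3 (28.5 ± 2.52) came next, and the libraries of Anxa4 and Anxa3 overlapped. Anxa11 (3.47 ± 0.386 CPM per kb) and Anxa8 (1.67 ± 0.167) were far lower. In irradiated libraries Anxa8 (4.87 ± 0.131 CPM per kb) stood above Anxa11 (3.29 ± 0.160) with no overlap, and the order of the other members was the same. Isoforms shorter than the annotated union of exons would make such levels too low, and isoform use was not analysed here.

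The 9 members together took 2138 to 2250 CPM in non-irradiated and 1997 to 2132 CPM in irradiated libraries, with irradiated III highest of its group. Anxa8 was 0.143% ± 0.0115 of this sum before and 0.449% ± 0.0254 after irradiation (SD, n = 4). No irradiated library had a higher annexin sum than any non-irradiated one, and Anxa8 stayed a minor part of it.

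In the list of S100 and EF-hand partners of annexins, which also held Ahnak and its relative Ahnak2, only Ahnak2 was called. Of 15 listed genes matched, 12 were tested, and edgeR called 1 higher and 0 lower. DESeq2 and limma-voom also called 0 lower, and 2 were lower at an unadjusted p under 0.05. Over all tested genes 2.59% were called higher and 4.15% lower. The median log2 fold change of the list was 0.00, as over all genes. Ahnak2 (chromosome 12, 112772194 to 112802657), related to Ahnak, the giant scaffold that binds Anxa2 with S100a10, stood at 430, 401, 442 and 435 CPM in non-irradiated and 485, 493, 503 and 512 CPM in irradiated libraries I to IV. The groups did not overlap, and the log2 fold change was 0.22 (SE 0.04, adjusted p = 0.00281). Ahnak itself (2692 ± 140 and 2837 ± 67.0 CPM, adjusted p = 0.33) and S100a6 (167 ± 23.5 and 180 ± 11.8 CPM, adjusted p = 0.494) did not pass. The Anxa2 partner S100a10 (82, 79.9, 78.6 and 79.5 against 75.2, 75.3, 82.6 and 74.8 CPM, adjusted p = 0.499), named after its value was seen, did not pass either.

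Of 18 genes for annexin receptors and surface targets, 9 were tested, and edgeR called 0 higher and 0 lower. Its shares over all tested genes were 2.59% higher and 4.15% lower. DESeq2 called 0 higher and 1 lower, limma-voom 0 in either direction, and at an unadjusted p under 0.05 there were 0 higher and 3 lower (Plat, Plau and Plaur). Genes of the formyl peptide receptor family were hardly detected: Fpr1 had 19 counts and Fpr2 had 3 counts over all libraries, and Fpr3, Fpr-rs3 and Fpr-rs4 had 0 counts. The most abundant members were the integrin chain gene Itgb1 (939 ± 32.2 and 915 ± 14.8 CPM, adjusted p = 0.595) and Pla2g4a, the cytosolic phospholipase A2 that Anxa1 restrains (445 ± 15.6 and 456 ± 12.3 CPM, adjusted p = 0.644). Plaur, the urokinase receptor, missed the threshold (46.8 ± 4.19 and 40.4 ± 2.13 CPM, adjusted p = 0.0573 for a log2 fold change of -0.21) and was called lower in 8 alternatives, DESeq2 among them (0.0233). Cd63, the late endosomal partner of Anxa8, stood at 135 ± 16 and 135 ± 3.07 CPM (adjusted p = 0.994 for a log2 fold change of 0.00). Plaur, Plat, Plau and Cd63 were named after their values were seen.

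Of 22 genes of plasma membrane repair, 21 were tested, and edgeR, DESeq2 and limma-voom each called 0 higher and 2 lower (0 higher and 4 lower at an unadjusted p under 0.05), beside edgeR's shares over all tested genes of 2.59% higher and 4.15% lower. The median of the log2 fold changes was -0.02. Cav1, caveolin 1, the coat protein of caveolae, stood at 267, 318, 267 and 281 CPM in non-irradiated and 236, 217, 230 and 226 CPM in irradiated libraries I to IV (adjusted p = 0.00239 for a log2 fold change of -0.32). Esyt1, a lipid transfer protein of contacts between endoplasmic reticulum and plasma membrane, stood at 202, 188, 194 and 184 CPM and at 168, 164, 169 and 168 CPM (adjusted p = 0.00491 for a log2 fold change of -0.20). Neither gene's groups overlapped. The ferlin gene Myof (489 ± 13.2 and 465 ± 8.37 CPM, adjusted p = 0.23) and the calpain gene Capn2 (401 ± 19.4 and 395 ± 15.2 CPM, adjusted p = 0.814), both of which act in resealing, did not pass. Without both irradiated I and II, Esyt1 lost its call at nearly the same log2 fold change (-0.19, adjusted p = 0.0685), and Cav1 kept it (-0.31, adjusted p = 0.0254).

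**Figure D3:**
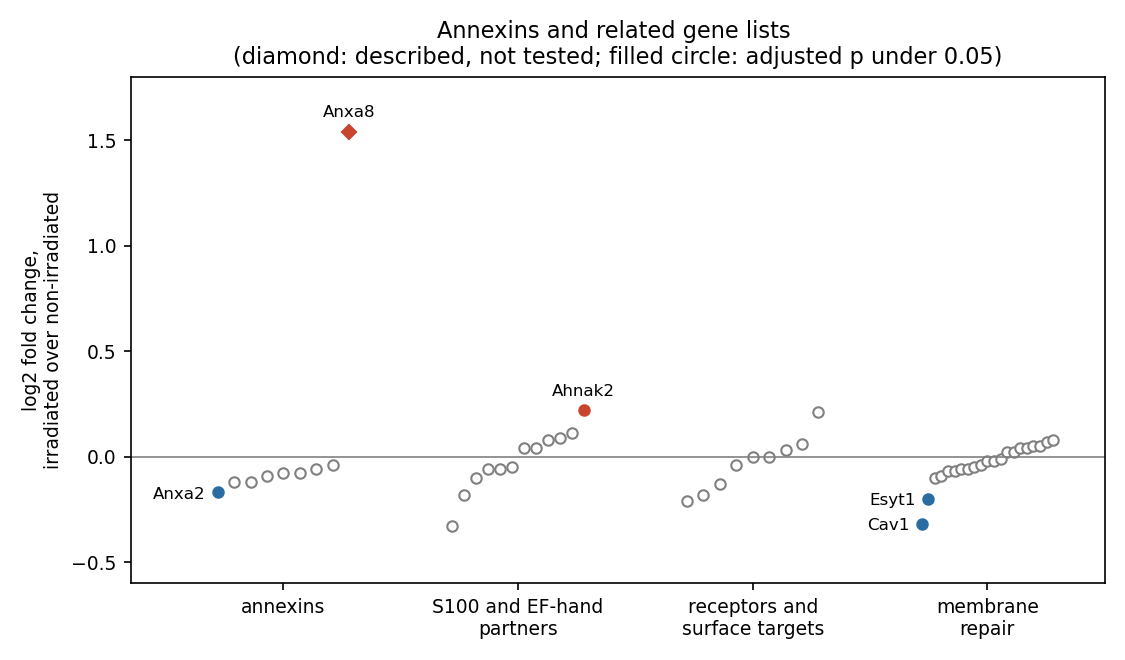
Log2 fold change of each tested gene of the annexin family and of 3 lists of related genes, sorted within each list. Red and blue filled circles are genes called higher or lower, open circles were not called, and the diamond is Anxa8; outside the annexins the range was -0.33 to 0.22.

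Most genes around Anxa8 on chromosome 14 had too few counts to test. Within 500 kb of its span 39 genes were counted, 9 were tested, and edgeR called 1 higher and 0 lower. The number lower was also 0 at an unadjusted p under 0.05 and with DESeq2 and limma-voom. Among all tested genes edgeR called 2.59% higher and 4.15% lower, and nothing is read from 1 call against these shares. The 1 gene called was Sncg (gamma-synuclein, a small protein of neurons and some tumours; ENSMUSG00000023064, 34370274 to 34374789), 269703 bases beyond the end of Anxa8 on the opposite strand. Sncg stood at 0.419, 0.604, 0.704 and 0.347 CPM in non-irradiated and 1.3, 1.45, 1.21 and 2.14 CPM in irradiated libraries I to IV. Although low, with 11 to 26 against 44 to 65 counts, its groups did not overlap (log2 fold change 1.52, 95% interval 0.96 to 2.07, adjusted p = 0.00276).

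Between Anxa8 and Sncg, the tested genes did not pass. Npy4r, a receptor of pancreatic polypeptide, had a log2 fold change of -0.14 (adjusted p = 0.558), Gprin2 one of 0.12 (adjusted p = 0.673) and Gm49201 one of -0.15 (adjusted p = 0.887). The repair factor gene Shld2 had a log2 fold change of 0.02 (adjusted p = 0.927) and Glud1, the mitochondrial glutamate dehydrogenase, one of 0.03 (adjusted p = 0.806). Beyond Sncg, Mmrn2 (log2 fold change 0.43, adjusted p = 0.514), the BMP receptor gene Bmpr1a (-0.01, adjusted p = 0.92) and Ldb3 (-0.14, adjusted p = 0.402) did not pass either. The Mmrn2 gene lies next to Sncg and had 92 counts in all.

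**Figure D4:**
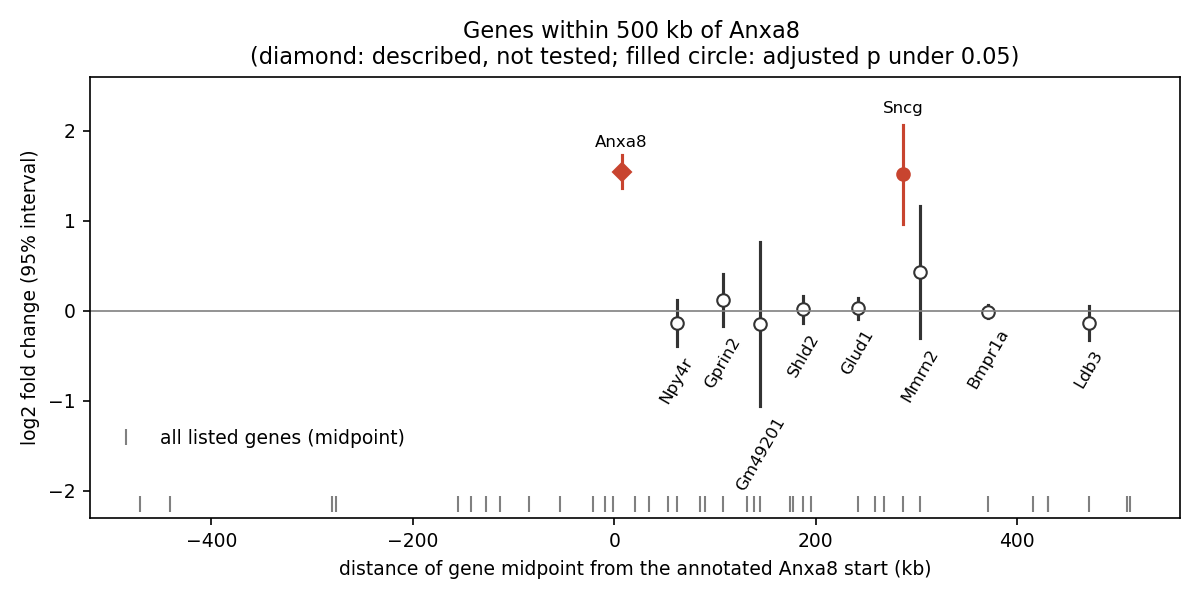
Log2 fold change with its 95% interval for Anxa8 (diamond) and the 9 tested genes within 500 kb, against the distance of each gene's midpoint from the annotated Anxa8 start. Grey ticks mark all 39 counted genes; Sncg is the filled circle at 1.52, and the open circles were not called.

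The 5 genes whose log2 CPM over the 8 libraries was most like that of Anxa8, among genes with at least 5 CPM on average, were Serpine2, Ctsf, Acad10, Ei24 and Mab21l3, each with a Pearson r of 0.99. Serpine2, a secreted protease inhibitor, went from 94.4 ± 2.93 to 146 ± 1.69 CPM (log2 fold change 0.63), and the p53-induced gene Ei24 from 194 ± 6.40 to 234 ± 3.81 CPM (0.27). The log2 fold changes of Mab21l3, the cathepsin gene Ctsf and Acad10 were 0.58, 0.34 and 0.17. The 5 genes were picked for their likeness to Anxa8, so these values are a description with no test. These correlations rest on the difference between the groups that all 5 genes share with Anxa8, and the fold changes of the 5 were smaller than that of Anxa8.

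Since Anxa8 is better known from other cell types, markers of such cells were checked beside it. All 11 fibroblast markers were detected, at a sum of 16243 to 19075 CPM in non-irradiated and 14797 to 16118 CPM in irradiated libraries, and 2 of them (Col1a2 and Vim) were called lower, where 4.15% of all tested genes were. At an unadjusted p under 0.05, 0 were higher and 6 lower (Col1a1, Col1a2, Pdgfrb, Vim, Thy1 and Fap), with no share over all tested genes taken at that threshold. The most abundant markers in the sum were the collagen genes Col3a1 (means of 6096 and 5571 CPM), Col1a2 (5353 and 4539) and Col1a1 (2083 and 1809). Dcn, Lum and Pdpn had log2 fold changes above 0 (0.06, 0.10 and 0.08, not called), and the other fibroblast markers were below 0. The part of this lower fibroblast sum in the annexin results was not tested. The 12 epithelial markers summed to 1.71 to 2.80 CPM in non-irradiated and 1.88 to 2.54 CPM in irradiated libraries. Over all libraries Epcam had 4 counts and Krt8 had 5 counts, and the highest were Krt7 (202 counts) and Krt19 (153 counts). The 10 mesothelial markers summed to 0.704 to 1.05 and 0.666 to 1.22 CPM, with Gpm6a at 0 and Krt19 highest. The 9 endothelial markers summed to 4.10 to 5.13 and 4.66 to 5.48 CPM, with Tie1 at 0. Most of this sum was Kdr (2.96 ± 0.243 and 3.42 ± 0.579 CPM, edgeR adjusted p = 0.406), followed by Pecam1 (181 counts) and Tek (180 counts). Most of these markers had too few counts to test: 2 epithelial, 1 mesothelial and 3 endothelial markers were tested. With edgeR 0 of these were called, 0 also at an unadjusted p under 0.05, and the ranges of the list sums overlapped between the groups. The untested endothelial markers Cdh5 (6 counts, irradiated higher) and Vwf (52 counts, irradiated lower) had CPM groups that did not overlap. So did the untested pericyte marker Rgs5 (9 counts, irradiated lower). Cdh5 had 0 counts in each non-irradiated library and 1 or 2 in each irradiated one. The share without overlap was not taken over untested genes, and nothing is read from these low counts. The 11 leukocyte markers (4 tested) summed to 12.3 to 15.3 and 14.4 to 15.5 CPM, with Tyrobp at 0 and Ptprc at 6 counts. The highest of them were Cd14 (2484 counts) and Cd68 (953 counts). The 8 glial and neuronal markers (1 tested) summed to 0.677 to 1.36 and 0.853 to 1.25 CPM. No tested marker of these lists was called either. Of 8 smooth muscle and pericyte markers (438 to 478 and 403 to 464 CPM), 7 were tested and 5 of these were not called. Notch3 was called higher (log2 fold change 0.27, edgeR adjusted p = 0.0109) and Actg2 lower (-0.20, adjusted p = 0.0263). The shares over all tested genes were 2.59% higher and 4.15% lower.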

How the data were processed

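Raw whole-number counts of reads per Ensembl gene were deposited by the authors, 1 file per library. The tools used were featureCounts 1.5.0-p1, STAR 2.5.2a and bcl2fastq 2.20.0.422 with the build mm10, per the submitters' processing notes. For the annotation release, the strand setting and multi-mapped reads, the answer is not given in the sources used here. GENCODE M21 (GRCm38, the assembly of mm10) gave symbols to 55480 of 55573 identifiers.

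The test was edgeR's (4.0.16, under R 4.3.3) quasi-likelihood test on 8 libraries (TMM factors, filterByExpr with a minimum count of 10 and minimum total of 15, Benjamini-Hochberg adjustment over 15259 genes, calls at an adjusted p under 0.05). Intervals are 95% and come from the SE and total degrees of freedom. The script was tested on simulated data. Replicates differed by more than counting noise (chi-square per degree of freedom 5.12 to 27.6), and no pair was merged. Irradiated I and II (5.46) and III and IV (5.12) were closer than the other irradiated pairs (16 to 27.6). Non-irradiated II and IV (5.29) and I and III (8.6) were closer than the rest of that group (9.96 to 13.9). SDs, SEs and intervals count each library as separate, and whether close libraries shared a source was not tested. A count of 0 in a library allows up to 3 counts, by counting error alone.

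The members and lists were chosen with earlier results of these data known. Named were all annexins, called list members, the 2 most abundant uncalled members per list, all tested genes within 500 kb of Anxa8 and the 5 genes most correlated with it. The listed gene S100a12 matched no identifier. Alternatives were other factors, DESeq2 1.42.0, limma-voom (limma 3.58.1), other filters, a threshold of 0.01, a replicate block and left-out libraries.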

Additional observations from a re-analysis of the deposited data

Results flagged for a closer look

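Of 66 groups of 4 libraries checked for 33 named genes, 3 held 1 library far from the other 3 by Dixon's criterion, and chance alone flags about 1 in 20 groups. Anxa11 stood at 14.6 CPM in irradiated IV against 13.2 to 13.4 CPM in the other irradiated libraries. Acad10 stood at 14.2 CPM in irradiated III, where the others were all at 13.9 CPM. Mab21l3 stood at 24.2 CPM in irradiated II against 26.0 to 26.2 CPM in the others.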

How the results depend on the processing

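The log2 fold change of Anxa8 lay between 1.49 and 1.66 in all 18 alternatives, and in none of them was another of the 9 members called higher. The number of other members called lower was 0 to 1 with 1 library left out, 0 without both irradiated I and II and 0 at a threshold of 0.01. With the replicate block it was 2 (Anxa2 and Anxa5, the latter at an adjusted p of 0.0314), though the shared numerals were not taken to pair the libraries (correlations of same-numbered deviations of 0.02, -0.03, 0.27 and 0.15, and libraries I and II not closest to their own number). With non-irradiated I and III both left out it was Anxa1, not Anxa2, that was called. Surface targets called lower numbered 1 with upper-quartile factors, total counts, DESeq2, the 1 CPM filter or the replicate block (Plaur in each), 1 when non-irradiated I and III were both left out (Plat), 2 without a filter (Plau and Plaur), and 0 to 2 with 1 library left out. Membrane repair genes called lower fell to 1 without both irradiated I and II. Over all genes, those called higher numbered 648 without a filter, 140 at the threshold of 0.01 and 221 to 402 with 1 library left out, against 395, and those called lower 295 without both irradiated I and II, 296 at 0.01 and 415 to 611 with 1 library left out, against 634. The cause of these shifts was not tested. The call of Sncg was kept in the 17 alternatives that gave it an adjusted p, and DESeq2 gave it none. Apart from the surface targets above, 8 single values (of Anxa2 and Esyt1) lost a call and 2 (of Anxa1 and Anxa5) gained one in an alternative, with the direction kept. Low counts limit Anxa9, Sncg and Mmrn2, whose intervals are wide, and leave Anxa10 and Anxa13 untested.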
